A study of Homo sapiens with 6 samples.

Results

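The zinc finger genes ZNF155, ZNF221, ZNF222, ZNF223, ZNF224, ZNF225, ZNF226, ZNF227, ZNF230 and ZNF234 lie in a row in the 19q13.31 cluster on the long arm of human chromosome 19, with ZNF284, which is not among them, between ZNF223 and ZNF224. These 10 genes were picked by symbol out of the 60666 genes listed, and their expression was compared by RNA-seq between 3 libraries of HCT116 cells, an established colorectal carcinoma line that is wild type for DNMT3B, and 3 libraries of DNMT3B KO cells, a knockout of the de novo DNA methyltransferase gene DNMT3B made in HCT116. Neither line was treated. DNMT3B KO is represented by a single derived line, so the effect of the knockout and other differences between these lines cannot be told apart, and nothing in the labels says that the replicates were separate cultures, so that a p-value reflects no more than the spread among the libraries, which may be technical.

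Genes of this family encode proteins with a KRAB domain at one end and an array of C2H2 zinc fingers at the other. The fingers bind DNA, and the KRAB domain recruits the scaffold protein TRIM28 (KAP1), which in turn brings the H3K9 methyltransferase SETDB1, HP1 proteins and deacetylase complexes to silence nearby sequence, often that of transposable elements. The genes arose by repeated local duplication, which is why they sit in clusters and resemble one another. DNA methylation was not analysed here.

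The members were not equally close in sequence. Their coding sequences ran from 1422 bases (ZNF230) to 2409 bases (ZNF226). ZNF222 was 87.9% identical to ZNF223 over 1431 aligned bases and 87.0% identical to ZNF230 over 1432. ZNF221 was 87.8% identical to ZNF224 and 86.3% to ZNF155, and ZNF234 was 86.4% identical to ZNF226. ZNF227 stood furthest from the others, with at most 71.2% identity to any of them. Despite this likeness, between 95.64% and 99.87% of the 50-base stretches of 8 members were found in no other annotated gene. The exceptions were ZNF222, with 83.18%, and ZNF223, with 56.09%. Both share exon bases with a read-through gene on the same strand, ENSG00000267022, and without that gene the shares were 96.82% and 99.97%. How the authors' counting divided reads in these shared exons is uncertain, but the read-through gene itself held at most 4 counts in any library.

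The promoters of the members carry a common sequence layout. RefSeq promoter sequences (GRCh38.p14, 250 bases before to 50 after the start site) were matched for 7 of the 10 members. ZNF155, ZNF221 and ZNF223 had no entry. The RefSeq start sites are not always the gene starts quoted below. The windows of ZNF225 (44113149 to 44113448) and ZNF227 (44212282 to 44212581) lie inside the annotated spans of these genes. The promoters of ZNF222 and ZNF234, the genes with the largest decreases, are printed with those of their neighbours ZNF230, which rose, and ZNF226, which did not pass the test, all on the plus strand and with matches to TTCTGGGAA and ACTTCCG (either strand) in capitals. They span chr19:44025129-44025428 for ZNF222, chr19:44141304-44141603 for ZNF234, chr19:44002707-44003006 for ZNF230 and chr19:44164850-44165149 for ZNF226.
ZNF222: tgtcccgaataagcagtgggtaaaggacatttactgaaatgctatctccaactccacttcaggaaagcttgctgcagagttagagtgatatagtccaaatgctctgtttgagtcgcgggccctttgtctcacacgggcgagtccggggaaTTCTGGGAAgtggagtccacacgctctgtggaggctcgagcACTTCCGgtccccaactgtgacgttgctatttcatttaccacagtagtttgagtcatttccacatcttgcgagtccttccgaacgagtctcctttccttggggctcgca
ZNF234: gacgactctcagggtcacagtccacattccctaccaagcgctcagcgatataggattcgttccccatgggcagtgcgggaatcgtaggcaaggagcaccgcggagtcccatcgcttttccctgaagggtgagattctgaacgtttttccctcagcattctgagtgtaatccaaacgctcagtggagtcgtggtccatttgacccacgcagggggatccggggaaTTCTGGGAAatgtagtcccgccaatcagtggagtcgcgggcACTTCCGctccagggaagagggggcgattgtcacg
ZNF230: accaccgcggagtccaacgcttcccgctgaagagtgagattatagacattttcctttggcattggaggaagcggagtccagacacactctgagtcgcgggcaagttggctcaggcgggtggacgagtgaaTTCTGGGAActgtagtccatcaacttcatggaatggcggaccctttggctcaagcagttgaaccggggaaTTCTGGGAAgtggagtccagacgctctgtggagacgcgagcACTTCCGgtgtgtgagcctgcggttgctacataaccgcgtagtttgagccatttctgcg
ZNF226: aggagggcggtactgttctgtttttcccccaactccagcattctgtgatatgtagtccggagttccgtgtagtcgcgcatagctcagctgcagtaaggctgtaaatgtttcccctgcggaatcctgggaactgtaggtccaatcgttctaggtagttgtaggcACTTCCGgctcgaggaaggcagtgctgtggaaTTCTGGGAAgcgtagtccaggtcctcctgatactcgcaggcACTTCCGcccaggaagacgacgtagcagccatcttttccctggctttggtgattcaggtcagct

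Both motifs, and the 41-base spacing given below, were chosen after reading these promoters, so their frequency is a description. TTCTGGGAA was present in 7 of the 7 member promoters and in 1.03% of the 35116 promoters of the table, and ACTTCCG, which contains the core bound by ETS factors, was present in 7 of 7 against 6.83%. They were common in the rest of the cluster too: of the 9 other zinc finger genes of the cluster with an entry, 6 held TTCTGGGAA and 8 held ACTTCCG. In the members the matches of the motifs did not overlap. In 6 of the 7, a TTCTGGGAA was followed by an ACTTCCG whose first base lay 41 bases further on, and in ZNF225 the distance was 42 bases. The 41-base spacing was found in 10 promoters of the whole table (0.0285%), belonging to 9 genes: these 6 members, ZNF112 and ZNF235 of the same cluster, and LOC124907892. The number of TTCTGGGAA matches ran from 1 (ZNF222, ZNF234 and ZNF226) to 4 (ZNF225). Among the 7 members with an entry, the layout was present in genes that fell (ZNF222 and ZNF234), rose or did not pass. ZNF221, which also fell, had no entry, and whether the layout bears on the calls was not tested.

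**Figure D1:**
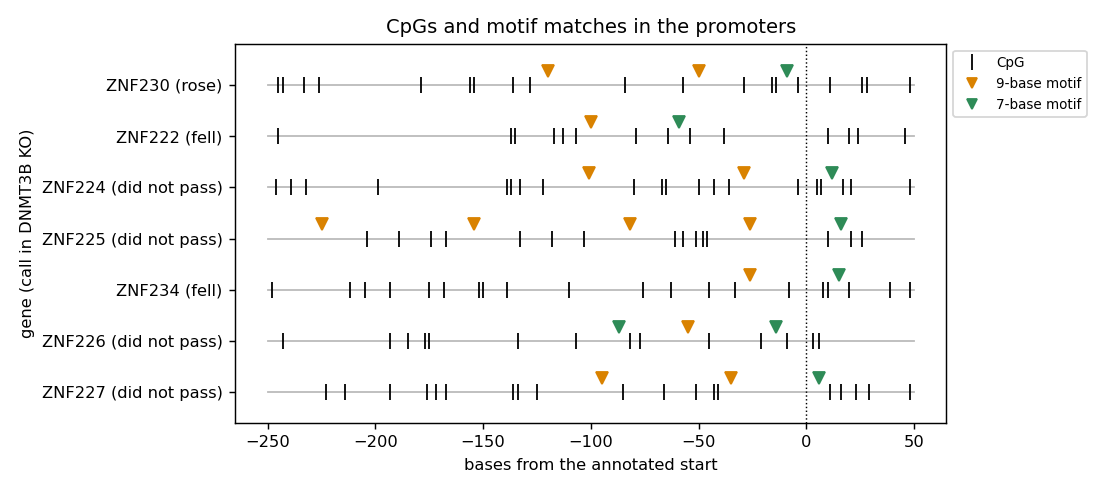
Positions of TTCTGGGAA (orange, the 9-base motif), ACTTCCG (green, the 7-base motif) and CpG dinucleotides (ticks) in the 7 member promoters, plotted in bases from the start site (x axis), with a row for each gene and its call. Each row holds an orange mark followed by a green mark 41 or 42 bases further on, whichever way the gene was called.

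CpG dinucleotides, the substrate of DNMT3B, numbered 14 (ZNF222 and ZNF226) to 20 (ZNF224 and ZNF234) in these 300-base windows, against a median of 14 over all promoters. The lowest and the highest of these counts each occurred in a gene that fell and in a gene that did not pass.

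The libraries held between 55436267 and 68274783 estimated counts each, so that 3 counts, the upper limit that a count of 0 allows, corresponded to 0.0416 to 0.0595 counts per 1000000 normalised counts (CPM). This limit and the intervals given for ratios cover counting error only. DNMT3B itself was at 38.5, 30.1 and 39.5 CPM in HCT116 and at 2.54, 2.87 and 2.83 CPM in DNMT3B KO, a log2 difference of -3.71 (standard error 0.15, adjusted p = 2.5e-06 by edgeR's quasi-likelihood test). The knockout line thus kept transcript of the targeted gene, at a much lower level in every library. Of 7 epithelial markers, 6 were at or above 1 CPM in every library (all but VIL1). The 7 summed to 4387 to 5256 CPM in HCT116 against 2123 to 2310 CPM in DNMT3B KO. Most of this sum was KRT8, KRT18 and KRT19, which were lower in each knockout library, as was CDH1. EPCAM (284 to 327.1 against 271.8 to 306.6 CPM) and CDX2 (20.85 to 23.51 against 19.64 to 21.21 CPM) overlapped between the lines. VIL1 was higher in each knockout library (0.5546 to 1.843 CPM, against at most 0.09918 CPM in HCT116). The 5 fibroblast markers summed to 9.70 to 19.5 and 12.7 to 15.8 CPM, nearly all COL1A1 (LUM at 0 in every library). The 4 immune markers summed to 5.73 to 14.3 and 15.7 to 21.3 CPM, mostly CD68 (PTPRC at most 0.335 CPM), and the 3 endothelial markers to at most 1.60 CPM. The part of these marker differences in the results was not tested.

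Expression of the cluster did not move in one direction. Of the 9 members with enough counts to test, 3 fell in DNMT3B KO (ZNF221, ZNF222 and ZNF234), 1 rose (ZNF230) and 5 did not pass (ZNF155, ZNF224, ZNF225, ZNF226 and ZNF227), at an adjusted p under 0.05 by edgeR's quasi-likelihood test. ZNF223 was not tested. Among all 16959 tested genes, 28.1% were called, 12.9% as risen and 15.1% as fallen. DESeq2 called 33.1% of genes, 15.1% as risen and 18.0% as fallen, and with it 3 members rose and 4 fell. The 3 that fell passed the filter on low counts only through their HCT116 libraries, so they had to differ to be tested at all, and their number is not support for a direction of the cluster. The median log2 fold change over the 9 was -0.42, with a range of -8.03 to 0.86, against -0.00 over all tested genes. This median includes those 3 genes, so its sign is not support for a direction either. In these bulk libraries, fewer cells with a transcript and less transcript per cell cannot be told apart.

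**Figure D2:**
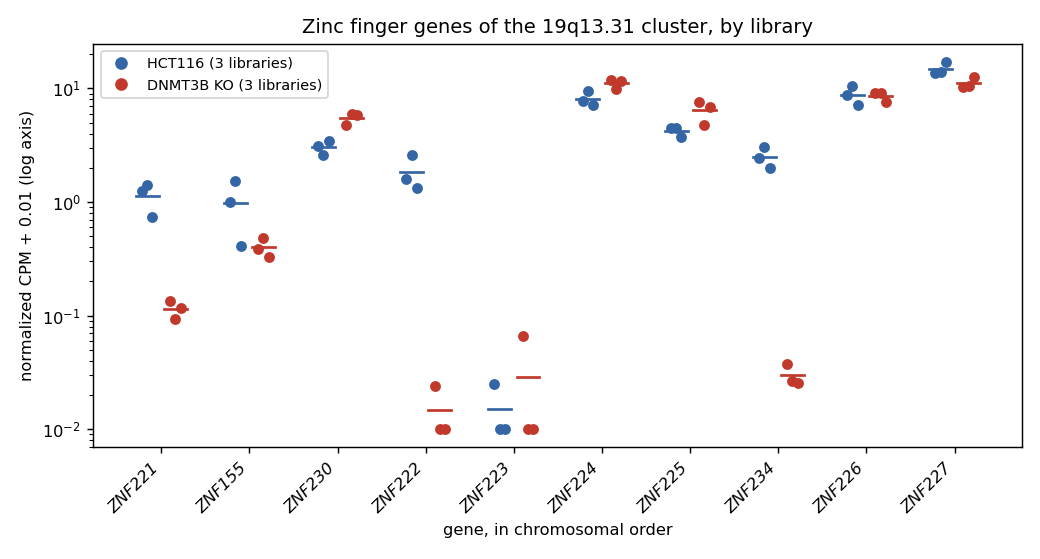
Normalised CPM plus 0.01 (y axis, logarithmic, so that 0 counts sit at 0.01) of each member in the 3 HCT116 and 3 DNMT3B KO libraries, with genes in chromosomal order along the x axis. Points are libraries and short lines are group means. ZNF221, ZNF222 and ZNF234 drop well below their HCT116 libraries, while the groups of the other tested genes lie closer together.

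ZNF222 fell to the edge of detection. It was at 1.58, 2.59 and 1.31 CPM in HCT116 and at 0.0139, 0 and 0 CPM in DNMT3B KO. These values rest on 105, 165 and 66 counts in the first line and on 1 count in all in the second, so the groups were far apart and the knockout libraries were at or under the limit of detection. Summed counts in HCT116, scaled for depth, exceeded those in DNMT3B KO by a factor of 367 (65.5 to 14550, exact 95% interval for counting error). The fitted log2 difference of -8.03 (standard error 0.68, adjusted p = 0.00011 by edgeR's quasi-likelihood test) depends on the small count added by the fit, and was -9.81 (adjusted p = 0.0018 by edgeR) without DNMT3B KO replicate 1, which held the only count of that line. ZNF222 is annotated on the plus strand of chromosome 19 from 44025342 to 44033110 (hg38).

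ZNF234, from 44141554 to 44160313, followed the same course. Its level was 2.42, 3.06 and 1.98 CPM in HCT116 and 0.0277, 0.0168 and 0.0152 CPM in DNMT3B KO. All knockout libraries held 1 or 2 counts, 4 in total, against 456 counts over the HCT116 libraries. The depth-scaled excess of HCT116 over DNMT3B KO was a factor of 125 (48.35 to 459, exact 95% interval for counting error) and the log2 fold change was -6.81 (standard error 0.41, adjusted p = 2.2e-05 by edgeR's quasi-likelihood test).

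ZNF221, the first member of the row (43951223 to 43967709), fell less completely. It was at 1.24, 1.41 and 0.734 CPM in HCT116 and at 0.125, 0.0839 and 0.107 CPM in DNMT3B KO. The lines did not overlap, and the knockout libraries each held 5 to 9 counts, above the floor of 3. Its log2 fold change was -3.39 (standard error 0.40, adjusted p = 0.00056 by edgeR's quasi-likelihood test), and the ratio of summed counts was 10.9 (6.94 to 17.95, exact 95% interval for counting error).

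A called loss that took the mean from 1 CPM or more down to less than 0.1 CPM was met by ZNF222 and ZNF234 and by 129 of all tested genes (0.761%). Both members had passed the filter on low counts only through HCT116, so this share is a description and not support for a direction of the cluster. ZNF221, at a mean of 0.105 CPM, lay just outside.

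ZNF230 was the member that rose. It was at 3.10, 2.58 and 3.43 CPM in HCT116 and at 4.80, 5.92 and 5.79 CPM in DNMT3B KO, so that each knockout library lay above each HCT116 library. The log2 fold change was 0.86 (standard error 0.19, adjusted p = 0.012 by edgeR's quasi-likelihood test). The call was close to the threshold: without HCT116 replicate 1, DNMT3B KO replicate 2 or DNMT3B KO replicate 3 the adjusted p was 0.051, 0.058 and 0.058. ZNF230 (44002957 to 44013924) and ZNF222 are adjacent, with 11417 bases between the end of the one and the start of the other, and they were called in opposite directions although their coding sequences are among the most alike of the cluster.

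ZNF224 and ZNF225 also lay higher in each DNMT3B KO library than in any HCT116 library, without passing the test. ZNF224 (44094361 to 44109886) was at 7.75, 9.44 and 7.10 CPM in HCT116 and at 11.9, 9.95 and 11.6 CPM in DNMT3B KO. The gap between the nearest libraries of the lines was small, and the log2 difference was 0.46 (standard error 0.16, adjusted p = 0.063 by edgeR's quasi-likelihood test). ZNF225 (44112181 to 44134822) was at 4.49, 4.51 and 3.69 CPM in HCT116 and at 7.52, 4.78 and 6.90 CPM in DNMT3B KO, where replicate 2 came close to the HCT116 libraries. Its log2 difference was 0.60 (standard error 0.21, adjusted p = 0.071 by edgeR's quasi-likelihood test). Single libraries decided these values. Without HCT116 replicate 2, ZNF224 passed (adjusted p = 0.017 by edgeR), and without DNMT3B KO replicate 2, ZNF225 did (log2 fold change 0.77, adjusted p = 0.039). With DESeq2 both passed, at adjusted p = 0.021 and 0.031.

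ZNF227, the last of the row (44207547 to 44237268), lay lower in each DNMT3B KO library, again without passing. It was at 13.6, 13.9 and 17.0 CPM in HCT116 and at 10.3, 10.5 and 12.5 CPM in DNMT3B KO, with no overlap between the lines. The log2 difference was -0.42 (standard error 0.15, adjusted p = 0.069 by edgeR's quasi-likelihood test). It passed without HCT116 replicate 2 (-0.47, adjusted p = 0.043 by edgeR) and with DESeq2 (adjusted p = 0.032).

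ZNF155 and ZNF226 overlapped between the lines. ZNF155 (43967862 to 43998326) was at 0.994, 1.52 and 0.397 CPM in HCT116 and at 0.374, 0.470 and 0.320 CPM in DNMT3B KO. HCT116 replicate 3 fell inside the knockout range, and the log2 difference of -1.33 had a standard error of 0.48 (adjusted p = 0.076 by edgeR's quasi-likelihood test). Without that library the log2 fold change was -1.69 and the gene passed (adjusted p = 0.0070 by edgeR). ZNF226 (44165073 to 44178381) was at 8.78, 10.4 and 7.08 CPM in HCT116 and at 9.19, 9.02 and 7.59 CPM in DNMT3B KO. Its knockout libraries all lay within the HCT116 range, and the log2 difference was -0.03 (standard error 0.18, adjusted p = 0.93 by edgeR's quasi-likelihood test), taking the opposite sign when HCT116 replicate 2 (0.11) or DNMT3B KO replicate 3 (0.06) was left out. Whether the change of ZNF226 differed from that of its relative ZNF234 was not tested.

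ZNF223 (44051367 to 44067999), the closest relative of ZNF222 and its next neighbour in the row, was barely detected. It had 1, 0 and 0 counts in HCT116 and 4, 0 and 0 in DNMT3B KO, and a difference was not detectable at this depth.

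In all, 3 of the 9 tested members lay higher in every DNMT3B KO library than in any HCT116 library, 4 lay lower and 2 overlapped. Over all tested genes, 45.9% did not overlap, 23.3% with DNMT3B KO above and 22.6% with it below. Among the members that lay lower, ZNF221, ZNF222 and ZNF234 were tested only through their HCT116 libraries. Their separation is therefore not support for a direction of the cluster. The HCT116 libraries of the members shared a pattern among themselves. Replicate 2 was the highest of the 3 in 7 of the 9 tested members and replicate 3 the lowest in 7, whereas over all tested genes replicate 2 was highest in 44.7% and replicate 3 lowest in 43.7%. The summed level of the 10 members was 43.95, 49.4 and 42.7 CPM in HCT116 and 44.3, 40.7 and 44.9 CPM in DNMT3B KO, with means of 45.3 ± 3.55 and 43.3 ± 2.27 (SD, n = 3). The totals overlapped between the lines.

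**Figure D3:**
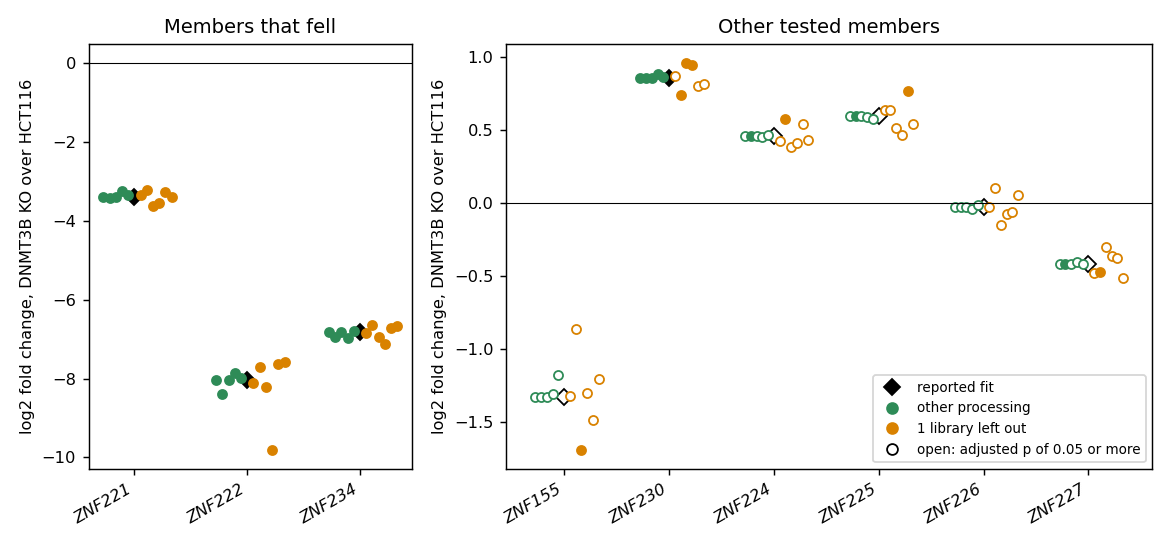
Log2 fold change of DNMT3B KO over HCT116 (y axis, with a scale of its own in each panel) for each tested member (x axis) under the chosen analysis and 11 alternatives. Diamonds mark the chosen analysis, green dots other processing and orange dots a library left out, filled where the gene passed the test. ZNF221, ZNF222 and ZNF234 passed in every setting, and only ZNF226 changed sign.

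Levels can be compared between genes only per length, and CPM was therefore divided by the kilobases of annotated exon. On that scale ZNF227 was the highest member in HCT116, at 2.92 ± 0.371 CPM per kb (SD, n = 3), above every library of every other member. ZNF226 (1.27 ± 0.240), ZNF224 (1.14 ± 0.170) and ZNF222 (0.913 ± 0.338) came next, and neighbours in this order overlapped. ZNF225 (0.588 ± 0.0648) lay below all of these. It was followed, with overlap between each gene and the next, by ZNF230 (0.483 ± 0.0687), ZNF234 (0.477 ± 0.104), ZNF221 (0.415 ± 0.13) and ZNF155 (0.281 ± 0.163), and ZNF223 (0.00152) lay below them all. ZNF222 was thus the fourth of the members per length in HCT116, while the other genes that fell came from the lower part of the order.

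In DNMT3B KO the order was ZNF227 (2.19 ± 0.245 CPM per kb, SD, n = 3), ZNF224 (1.58 ± 0.149), ZNF226 (1.24 ± 0.128), ZNF225 (0.890 ± 0.20) and ZNF230 (0.875 ± 0.0977), of which only the last pair overlapped. ZNF155 (0.112 ± 0.0219) and ZNF221 (0.0387 ± 0.00755) followed without overlap. ZNF223 (0.00559), ZNF234 (0.00382) and ZNF222 (0.00231) had between 1 and 4 counts over the 3 libraries and could not be ordered. With the length of the longest transcript in place of all exon bases, ZNF224 and ZNF226 exchanged places in HCT116 and no other rank changed. The distances between genes did change. In DNMT3B KO the means of ZNF226, ZNF225 and ZNF230 were then 1.44, 1.439 and 1.341. In HCT116 those of ZNF222 and ZNF225 were 1.132 and 0.951. The statements on overlap in both lines therefore hold for exon bases only.

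**Figure D4:**
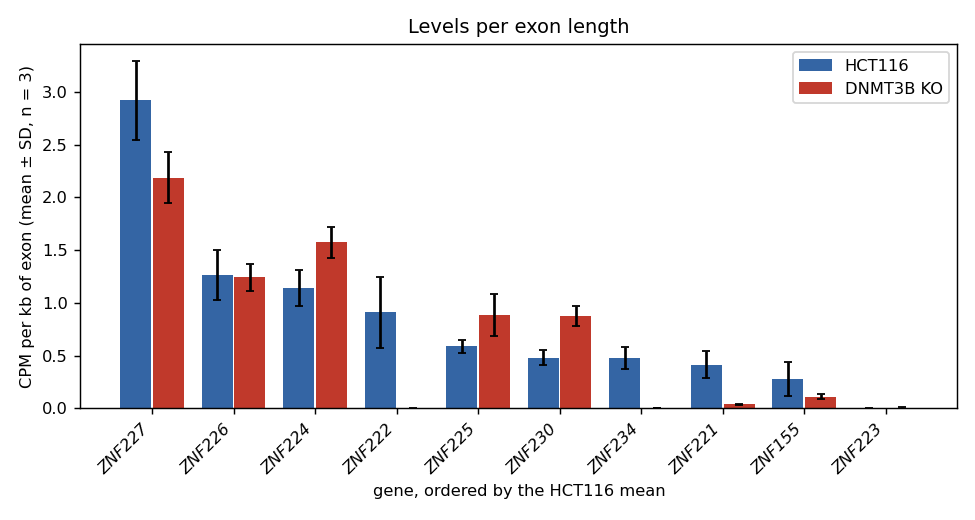
Level of each member in CPM per kilobase of exon (y axis, from 0) in HCT116 (blue) and DNMT3B KO (red), with genes ordered by the HCT116 mean along the x axis. Bars are means of 3 libraries and error bars are SD. ZNF227 leads in both lines, and ZNF222 moves from the fourth place in HCT116 to a level near 0 in DNMT3B KO.

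The members occupy 286 kb of chromosome 19 and are all transcribed from the plus strand, with starts 16.6 to 43.0 kb apart. The members that fell were not next to one another, although ZNF45, which also fell, precedes ZNF221. ZNF221 ends 152 bases before the start of ZNF155, which did not pass. ZNF222 lies between ZNF230, which rose, and the barely detected ZNF223, and ZNF234 lies between ZNF225 and ZNF226, which did not pass, with 6731 bases to the first and 4759 to the second.

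Of 10 further zinc finger genes listed for the cluster, 6 were tested, of which 2 rose, 2 fell and 2 did not pass (median log2 difference 0.25, against -0.00 over all tested genes, of which 12.9% rose and 15.1% fell). ZNF45 fell from 14.4 ± 1.18 to 6.51 ± 0.958 CPM (SD, n = 3), which is -1.15 on the log2 scale (standard error 0.16, adjusted p = 0.0012 by edgeR), and ZNF283 fell from 6.02 ± 0.679 to 3.46 ± 0.313 CPM (-0.80, standard error 0.17, adjusted p = 0.011). Both precede ZNF221 on the chromosome. ZNF112 rose from 2.78 ± 0.355 to 4.88 ± 0.658 CPM (0.81, standard error 0.20, adjusted p = 0.018 by edgeR) and ZNF180 from 12.1 ± 1.27 to 16.4 ± 1.27 CPM (0.43, standard error 0.13, adjusted p = 0.040), and both follow ZNF227. Without DNMT3B KO replicate 1 or 2, ZNF283 (adjusted p = 0.052 and 0.055 by edgeR) and ZNF112 (0.051 and 0.080) did not pass. ZNF180 passed only without HCT116 replicate 3 among the 6 libraries left out in turn, the adjusted p being 0.061 to 0.15 by edgeR for the others. None of the tested genes of this list dropped under 0.1 CPM from 1 CPM or more.

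Outside the zinc finger list, 20 genes were tested within 500 kb on either side of the members (43451223 to 44737268), of which 2 rose, 6 fell and 12 did not pass (median log2 difference -0.04), where 12.9% of all tested genes rose and 15.1% fell. ETHE1, which encodes a mitochondrial sulfur dioxygenase, fell from 43.2 ± 3.72 to 22.4 ± 1.09 CPM (SD, n = 3), which is -0.95 on the log2 scale (standard error 0.10, adjusted p = 3e-04 by edgeR). PLAUR, the urokinase receptor, fell from 60.1 ± 13.0 to 21.3 ± 3.74 CPM (-1.50, adjusted p = 0.00074). SMG9, a nonsense-mediated decay factor, the potassium channel gene KCNN4 and LYPD3 also fell (-0.77, -1.21 and -1.60), and ZNF428 rose (0.73, adjusted p = 0.0011). PINLYP, named after its values were seen, had the largest change of the tested flanking genes, rising from 0.0205 ± 0.0178 to 0.260 ± 0.0604 CPM (3.45, standard error 0.63, adjusted p = 0.0050). It held 2, 2 and 0 counts in HCT116, under the limit of detection, and 19, 19 and 13 in DNMT3B KO. PINLYP thus passed the filter on low counts only through its knockout libraries and had to differ to be tested at all. All of the called flanking genes lie before ZNF221, but so do most of the 20 that were tested. The only tested ones elsewhere were AC006213.1, AC021092.1, AC243964.3, PVR and CEACAM19. The decreases of named flanking genes were at most 1.60 on the log2 scale, and each of these genes stayed above 1 CPM in every DNMT3B KO library.

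**Figure D5:**
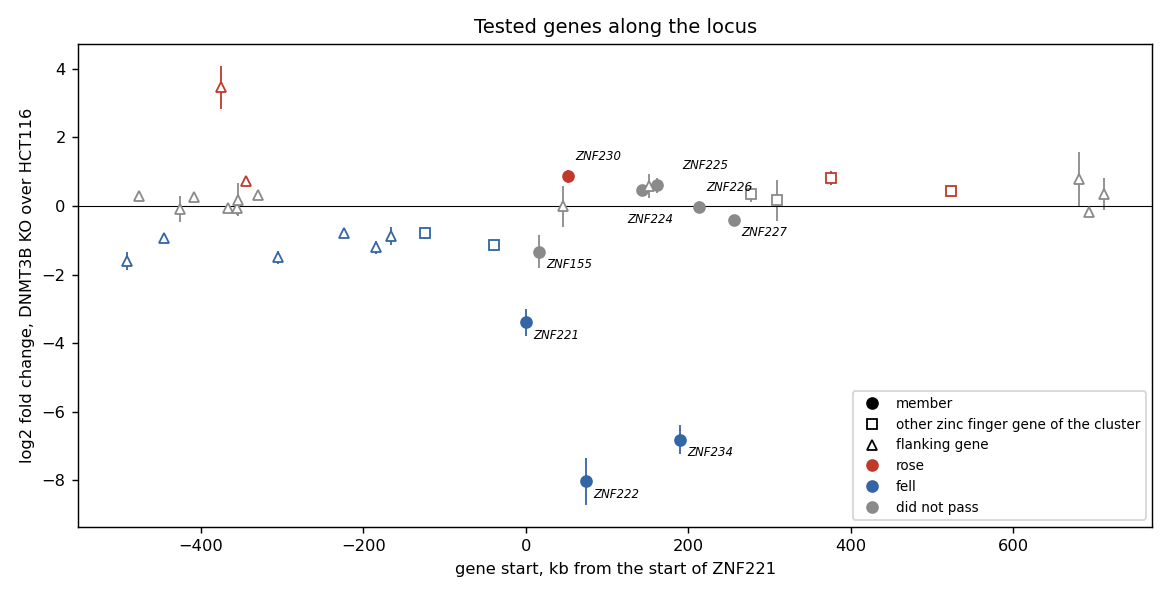
Log2 fold change of DNMT3B KO over HCT116 (y axis, bars are standard errors) against gene start in kb from the start of ZNF221 (x axis) for tested members (filled circles), other zinc finger genes of the cluster (open squares) and flanking genes (open triangles), coloured by call. The decreases of ZNF221, ZNF222 and ZNF234 stand below every other point.

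The genes through which KRAB proteins act were read from a list of 10 corepressor genes, all of them tested, of which 1 rose, 2 fell and 7 did not pass (median log2 difference -0.05), a share called close to the 28.1% of all tested genes. TRIM28, which binds the KRAB domain directly, was at 919 ± 193 CPM in HCT116 cells and 855 ± 48.6 CPM in the knockout line (SD, n = 3), with a log2 difference of -0.10 (standard error 0.15, adjusted p = 0.66 by edgeR). The deacetylase gene HDAC1 fell from 305 ± 4.10 to 164 ± 1.76 CPM (-0.89, standard error 0.08, adjusted p = 0.00012 by edgeR). The H3K9 methyltransferase gene SETDB1 fell from 58.6 ± 3.00 to 47.4 ± 0.531 CPM (-0.31, standard error 0.08, adjusted p = 0.024), and the remodeller gene CHD3 rose from 90.8 ± 4.80 to 119 ± 5.28 CPM (0.39, standard error 0.08, adjusted p = 0.0098). SETDB1 did not pass without HCT116 replicate 1 (adjusted p = 0.11 by edgeR) or DNMT3B KO replicate 1, 2 or 3 (0.085, 0.093 and 0.082), nor did CHD3 without replicate 1 of HCT116 (0.054) or of DNMT3B KO (0.055).

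ZNF224 is known as a repressor of ALDOA, which encodes the glycolytic enzyme aldolase A. ALDOA was at 1129, 1207 and 1309 CPM in HCT116 and at 907, 897 and 940 CPM in DNMT3B KO, lower in each knockout library. It fell by 0.41 on the log2 scale (standard error 0.10, adjusted p = 0.016 by edgeR's quasi-likelihood test), and did not pass without DNMT3B KO replicate 1, 2 or 3 (adjusted p = 0.074, 0.079 and 0.058). ZNF224 itself did not pass in the same fit, though it lay higher in each knockout library and passed with DESeq2 (adjusted p = 0.021). A link between the levels of ZNF224 and ALDOA was not tested.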

How the data were processed

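RNA-seq of 3 HCT116 and 3 DNMT3B KO libraries was analysed. The authors prepared stranded, poly(A)-selected libraries, aligned the reads to hg38 with STAR, quantified Ensembl transcripts with Salmon through nf-core/rnaseq, and deposited estimated counts per gene, scaled for length. The 10 members and all gene lists were chosen with earlier results of these data known.

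Estimated counts were rounded. Low counts were removed with filterByExpr (16959 of 60666 genes kept; at least 10 counts at the median library size in 3 libraries), scaled by TMM and tested with edgeR 4.0.16 (quasi-likelihood F test, R 4.3.3) fitting genotype alone. Adjustment was by Benjamini-Hochberg across the tested genes, with calls at 0.05. Standard errors are the log2 fold change divided by the square root of F. Alternatives were DESeq2 1.42.0 (test or size factors), no filter, libraries thinned to the shallowest total, a replicate block and each library left out. Single values of 3 against 3 libraries cannot go below p = 0.1 in an exact permutation test, so none was used. Positions, exons and sequence identity (blastn 2.17.0) come from GENCODE release 44, which matched 60437 gene IDs. Named were all members, the called genes of the other lists (or the 6 with the smallest adjusted p), DNMT3B and ALDOA; TRIM28 and other genes outside this rule were named after their values were seen.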

Additional observations from a re-analysis of the deposited data

How the results depend on the processing

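ZNF221, ZNF222 and ZNF234 fell, with a call, in each of the 11 alternatives, and the number of members that fell was 3 or 4 in all of them. The number of members that rose was 1 in the chosen analysis, 3 with DESeq2 (which called 15.1% of all genes as risen) and 0 to 2 when a library was left out. Members lying above without overlap numbered 3, and those lying below 4 to 5, in all 8 alternatives run. Over all tested genes, 22.8% to 29.8% lay above and 22.6% to 29.2% below in these alternatives, the highest shares being met with a library left out. ZNF226 had a log2 difference of -0.15 to 0.11 when a library was left out. Of the other zinc finger genes, 1 rose without a filter and 1 with a replicate block in place of 2, and leaving out a library gave 0 to 2 that rose and 1 to 2 that fell. Of the corepressor genes, 2 rose with DESeq2, 2 without a filter and 2 with the replicate block, in place of 1, and 1 fell without a filter and 1 with the block, in place of 2. Leaving out a library gave 0 to 4 and 1 to 2. Flanking genes that rose numbered 2 or 3 and those that fell 5 to 7 over all alternatives, and DNMT3B was called in each of them. Replicate numbers are shared between the lines, but the correlations of deviations between same-numbered libraries were 0.064, -0.01 and 0.122, so the numbers were not taken to pair the libraries; the replicate block lowered the calls over all genes from 4761 to 4214 and ended no call of a member. Leaving out a library gave 3049 to 5924 calls (17.6% to 34.1% of all tested genes). The share called was 24.8% with the replicate block and 16.6% without a filter. The median log2 difference of all genes was between -0.0043 and 0.0125 in every alternative. Depth limits ZNF223, and the knockout levels of ZNF222 and ZNF234, to a few counts.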

Other observations

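Of the untested zinc finger genes of the cluster, ZNF284 and ZNF285 had no count in any library, ZNF229 had 2 counts in DNMT3B KO replicate 1 only, and ZNF404 had 1, 5 and 0 counts in HCT116 and 2, 3 and 2 in DNMT3B KO. Long non-coding RNAs near the starts of members were low in both lines. The one at ZNF230 (AC006213.1) had a log2 difference of -0.01 (adjusted p = 0.99 by edgeR), while ZNF230 rose, and the one at ZNF225 (AC021092.1) had 0.58 (adjusted p = 0.26), with each DNMT3B KO library above each HCT116 library. The one at ZNF222 (AC067968.2) had 1 count in all 6 libraries together and was not tested.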
